A study of Mus musculus with 6 samples.

Results

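Two-alpha cells were defined here as CD4 T cells in which the receptor library held a second, different T cell receptor alpha chain beside the first alpha chain and a beta chain. Cells were eligible when they had an assigned replicate and at least 1 alpha and 1 beta junction, which 13310 of the 23595 cells of the series did. Of these, 1646 cells carried a second alpha junction, and the 11664 with a single one are called one-alpha cells. The members were chosen by the receptor calls themselves, so the number of alpha chains and the UMIs behind them are given as a description.

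The cells were sorted from the colonic lamina propria of mice that all carried 1 Foxp3{delta}EGFPiCre and 1 WT allele together with the reporter R26lsl-tdTomato/wt. Both gates were CD4 T cells, 1 of them tdTomato+GFP+ and the other tdTomato-GFP-, with 3 biological replicates each. The replicates of a gate were marked with hashtag antibodies and run in 1 lane, and a difference between the gates cannot be told apart from one between the lanes. GFP and Cre are both made from the Foxp3 locus in this allele, so only cells that used it can turn on tdTomato. Neither an age nor a treatment of the mice is given in the sources used here. Each gate and replicate formed 1 unit, and the two-alpha and one-alpha cells of the same unit were compared with each other over the 6 units. Two-alpha cells of tdTomato+GFP+ replicates 1, 2 and 3 numbered 193, 300 and 174, against 1184, 2789 and 1471 one-alpha cells. In tdTomato-GFP- replicates 1, 2 and 3 they numbered 419, 405 and 155, against 3294, 1814 and 1112 one-alpha cells.

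An alpha beta T cell makes its receptor by joining V and J segments at the alpha locus, and V, D and J segments at the beta locus. At the beta locus a productive join on 1 chromosome largely stops joining on the other, whereas alpha segments are joined on both chromosomes and can be joined again, with J segments ever nearer to the constant region Trac being used, until the cell is positively selected. A mature T cell can therefore hold more than 1 productive alpha chain, and a droplet with more than 1 cell looks the same in a receptor library.

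The junctions of 4 clones show what such cells looked like, chosen because they held the most two-alpha cells (clones A, B and C) or were found in both gates (clone H). A clone was the set of cells of a unit with the same beta junction and at least 1 shared alpha junction. Each sequence runs 5′ to 3′ from the codon of the conserved cysteine through that of the conserved phenylalanine. Capitals in an alpha junction mark bases that are in neither germline segment, as read against GRCm38, and beta junctions were not marked.
clone A, first alpha listed, TRAV14D-2 with TRAJ40: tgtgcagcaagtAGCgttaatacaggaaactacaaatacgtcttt
clone A, other alpha, TRAV9D-3 with TRAJ39: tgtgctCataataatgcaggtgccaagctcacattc
clone A, beta, TRBV20 with TRBJ2-7: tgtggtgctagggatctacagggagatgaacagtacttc
clone B, first alpha listed, TRAV3D-3 with TRAJ16: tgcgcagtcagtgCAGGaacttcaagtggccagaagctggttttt
clone B, other alpha, TRAV7N-6 with TRAJ6: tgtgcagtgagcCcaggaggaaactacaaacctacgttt
clone B, beta, TRBV15 with TRBJ2-1: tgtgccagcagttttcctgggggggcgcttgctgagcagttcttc
clone C, first alpha listed, TRAV14D-3-DV8 with TRAJ42: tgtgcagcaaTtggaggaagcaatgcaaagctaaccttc
clone C, other alpha, TRAV11 with TRAJ42: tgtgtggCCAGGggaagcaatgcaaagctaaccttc
clone H, first alpha listed, TRAV7-3 with TRAJ9: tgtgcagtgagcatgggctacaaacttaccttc
clone H, other alpha, TRAV14D-1 with TRAJ23: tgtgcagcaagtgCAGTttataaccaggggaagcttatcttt
clone H, beta, TRBV13-3 with TRBJ1-6: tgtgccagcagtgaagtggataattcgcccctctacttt

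Clone A was the largest, with 237 cells in tdTomato+GFP+ replicate 1. Both alpha chains were read in 97 of its cells (40.9%), the first listed alone in 98 and the other alone in 42. Among the 97 two-alpha cells the first listed alpha had more UMIs in 45 and the other in 52, so neither chain was regularly the stronger one. The same pair was found in 2 two-alpha cells of tdTomato+GFP+ replicate 2, which shared its lane. Clone B held 108 cells in tdTomato-GFP- replicate 2, of which 61 (56.5%) showed both chains, 35 the first alone and 12 the other alone. Clone C, in tdTomato+GFP+ replicate 1, joined the same J segment on both of its chains, and 24 of its 58 cells (41.4%) showed both. Clone H had 20 two-alpha cells among 23 in tdTomato+GFP+ replicate 2 and a further 18 two-alpha cells and 1 one-alpha cell in tdTomato-GFP- replicate 2. A receptor was thus seen in the libraries of both lanes under the same replicate number.

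The share of two-alpha cells among eligible cells was about 1 in 8, and the gates overlapped. It was 14.02%, 9.71% and 10.6% in tdTomato+GFP+ replicates 1, 2 and 3. The tdTomato-GFP- replicates 1, 2 and 3 had 11.3%, 18.3% and 12.2%. Their exact (Clopper-Pearson) 95% intervals, which cover counting error only, were 12.2 to 15.96, 8.69 to 10.8 and 9.13 to 12.2 in tdTomato+GFP+ units and 10.3 to 12.4, 16.7 to 19.9 and 10.5 to 14.2 in tdTomato-GFP- units. The gate means were 11.4 ± 2.28% for tdTomato+GFP+ and 13.9 ± 3.78% for the tdTomato-GFP- gate (SD, n = 3 each), and the difference of -2.49 percentage points did not pass an exact two-sided permutation test (p = 0.5, with 0.1 the smallest possible). Replicate 2 of tdTomato-GFP- cells was the highest unit and replicate 2 of tdTomato+GFP+ cells the lowest.

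The shares depended on how clones were counted. With each clone counted as 1 cell the units lay closer together, at 10.2%, 11.4% and 11.8% in tdTomato+GFP+ and 12.9%, 12.1% and 11.98% in tdTomato-GFP- replicates. These values did not overlap between the gates, and the difference of -1.23 points gave the smallest p that 3 against 3 can reach (exact permutation test, two-sided, p = 0.1). Leaving out clone A alone left 8.42% two-alpha cells in its unit, and the difference between gates became -4.35 points (exact permutation p = 0.1). Cells were removed from the tdTomato+GFP+ gate only, while clone B stayed in tdTomato-GFP- replicate 2. Neither of these tests paired the gates by replicate number.

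**Figure D1:**
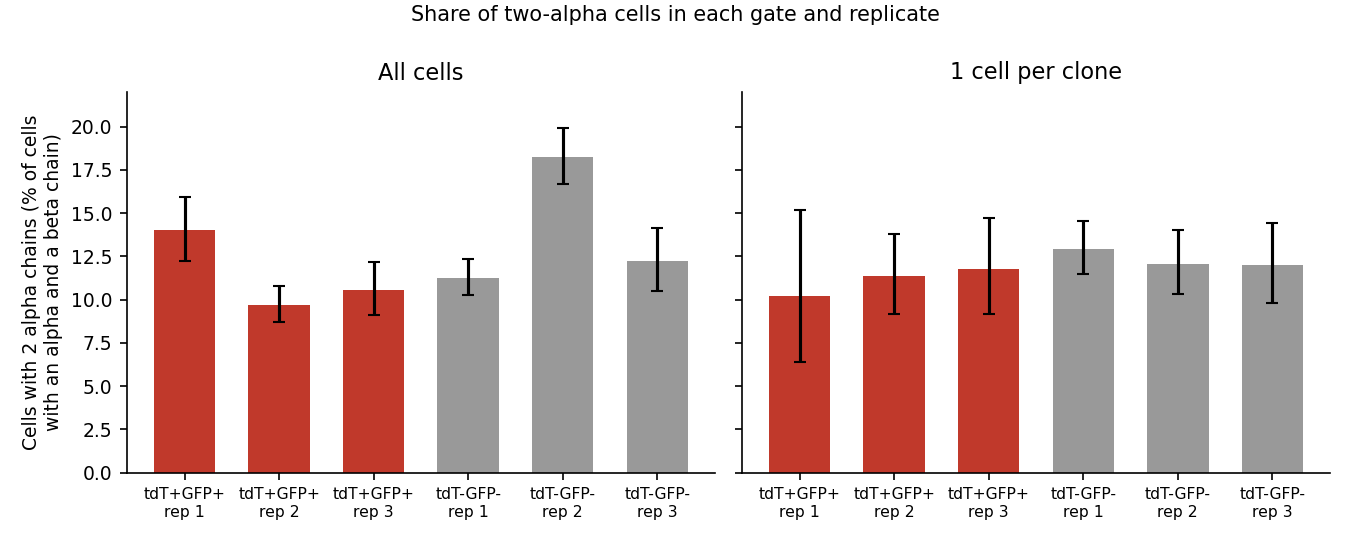
Share of two-alpha cells among eligible cells, in percent, for each gate and replicate, with tdTomato+GFP+ units left of tdTomato-GFP- units; bars are units and lines are 95% exact binomial intervals. The highest unit is tdTomato-GFP- replicate 2 at 18.3% and the lowest is tdTomato+GFP+ replicate 2 at 9.71%.

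A droplet that holds more than 1 cell can also give a second alpha chain, so total UMIs, the second beta chain and the purity of the hashtag were set beside the calls. Two-alpha cells had more UMIs in every unit. Their median total UMIs, hashtags left out, were 4384, 4018 and 3981 in tdTomato+GFP+ replicates 1, 2 and 3, against 3726, 3629 and 3563 in one-alpha cells of the same units. In tdTomato-GFP- replicates 1, 2 and 3 the medians were 4662, 4074 and 4741 in two-alpha cells, against 3940, 3850 and 3979 in one-alpha cells. The geometric mean ratio was 1.14 (log2 0.19), higher in 6 of 6 units, with an exact two-sided sign-flip permutation p of 0.031, the smallest that 6 pairs allow. This test takes the 6 units as independent, although same-numbered replicates of the gates shared receptors. With the signs flipped by replicate number the exact permutation p was 0.25, the smallest that 3 pairs allow, so this call and the others at 0.031 rest on the 6 units being independent. Genes detected per cell were 1.09 times as many in two-alpha cells, again in 6 of 6 units (exact permutation p = 0.031).

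Read the other way, the share of two-alpha cells climbed with depth. Averaged over units it was 8.38%, 10.9%, 13.1% and 18.4% from the lowest to the highest quartile of total UMIs. A second beta chain, which the rule did not use, was found in 1.86%, 2.07%, 2.54% and 9.48% of the cells of those quartiles, so it was concentrated in the top quartile while two-alpha cells were spread over all 4. The part of depth in each comparison below was not tested beyond the depth-matched values given beside it.

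A second beta chain was more frequent in two-alpha cells in 5 of 6 units. In tdTomato+GFP+ replicates 1, 2 and 3 it was present in 0%, 10.7% and 8.05% of two-alpha cells, against 1.27%, 4.09% and 3.20% of one-alpha cells. In tdTomato-GFP- replicates 1, 2 and 3 the shares were 15.99%, 8.89% and 13.5% of two-alpha cells, against 4.04%, 3.36% and 3.42% of one-alpha cells. The mean difference was 6.30 points (exact permutation p = 0.0625, two-sided). The 0% in tdTomato+GFP+ replicate 1 rests on 193 cells.

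The hashtag did not separate the classes in the same way. The fraction of hashtag UMIs on the main hashtag averaged 0.9385 in two-alpha cells and 0.9354 in one-alpha cells, a difference of 0.00304 toward purer hashtags in two-alpha cells that did not pass (5 of 6 units, exact permutation p = 0.156). No eligible cell was below 0.8002, so cells with less pure hashtags were not compared. Across hashtag fractions of 0.8 to 0.9, 0.9 to 0.95 and 0.95 to 1 the mean share of two-alpha cells was 13.8%, 12.8% and 14.3%. It was higher in the purest than in the lowest range in 4 of 6 units, and tdTomato-GFP- replicate 2 went the other way, with 32.8% in the lowest range. Without that unit the means were 10.04%, 11.9% and 13.55%. A droplet with 2 cells of the same replicate carries 1 hashtag and would not be seen this way.

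Cells to which no replicate had been assigned had less pure hashtags and more second chains, and whether they hold more than 1 cell was not tested. Among those with an alpha and a beta chain, 137 of 586 tdTomato+GFP+ cells (23.4%) and 307 of 962 tdTomato-GFP- cells (31.9%) carried a second alpha, and 20.5% and 39.4% a second beta chain. Their median UMIs were 5578.5 for the tdTomato+GFP+ and 6769.5 for the tdTomato-GFP- gate, above those of every unit, and their median hashtag fractions were 0.637 and 0.617. They entered no comparison between two-alpha and one-alpha cells.

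Of the cell barcodes, 174 occurred in both lanes, and 20 two-alpha cells carried such a barcode. Receptors shared between gates numbered 19, 23 and 33 for replicates 1, 2 and 3 of the same number, and 0 to 3 for unlike numbers. Receptors shared between replicates within a lane ranged from 1 to 21.

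A pair of alpha chains that stands in several cells of 1 clone was read more than once. Of the 1183 two-alpha cells whose beta junction occurred in another cell of their unit, 1007 (85.1%) had the identical pair of alpha junctions in another cell. By unit this share was 96.7%, 89.8% and 84.9% in tdTomato+GFP+ and 71.4%, 87.3% and 77.5% in tdTomato-GFP- replicates 1, 2 and 3. It differed by the beta chain: 29 of 91 such cells with a second beta chain (31.9%) shared their pair, against 978 of 1092 without one (89.6%). Cells were matched by their first beta junction only, so clone mates with 2 beta chains ranked differently were not matched. Over all units the share with a recurring pair was alike at both depths of the second alpha. It was 691 of 812 cells (85.1%) with at least 3 UMIs on that chain and 316 of 371 (85.2%) with fewer.

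Within these clones many cells were read with only 1 of the 2 chains. The 182 clones with a recurring pair held 1831 cells, of which 1007 (55.0%) showed both chains, 821 showed 1 of them and 3 showed another alpha. In the 92 clones of at least 5 cells the median share showing both was 60%, with a range from 12.9% to 100%, and in 48 of them each chain was also seen alone. One-alpha cells therefore include cells of clones in which a second chain was read elsewhere, and the one-alpha class is a class of detection.

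Among the 201 clones of at least 10 cells, most had no two-alpha cell at all. None was found in 157 (78.1%), 3 clones had up to 10%, 6 had 10 to 30%, 16 had 30 to 60% and 19 had 60 to 100%. Clones with two-alpha cells thus ran over the whole range of shares.

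**Figure D2:**
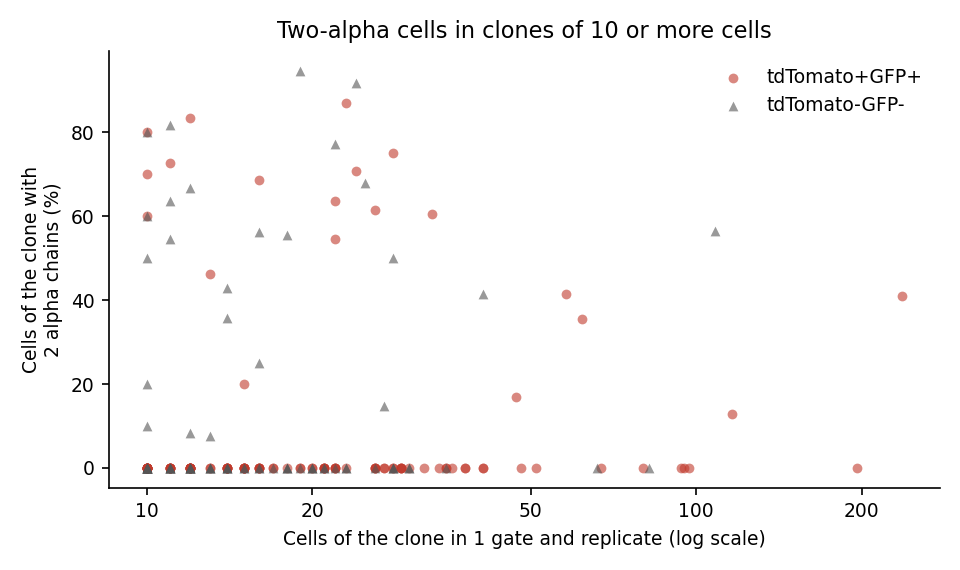
Share of two-alpha cells, in percent, against the number of cells of the clone on a log axis, for the 201 clones of at least 10 cells; each point is a clone of 1 unit, by gate. Of the points 157 lie at 0, and the other 44 spread over the range above it, with clone A at 237 cells and 40.9%.

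Alpha junctions of two-alpha cells were looked for among cells with other beta chains of the same lane, where RNA from another droplet or another cell would come from. The second alpha was the first alpha of a cell with another beta junction for 294 of 1646 two-alpha cells (17.9%), the first alpha for 18.8%, and the alpha of one-alpha cells for 2760 of 11664 (23.7%). These are counts of cells, so an expanded clone enters with each of its cells. The share for the second alpha was 20.7% where its pair did not recur (132 of 639) and 16.1% where it did (162 of 1007). A pair could recur only in the 1183 two-alpha cells whose beta junction occurred in another cell of their unit. The 639 therefore include cells without such a mate. Whether second alphas came from other cells was not tested. For two-alpha cells with a second beta chain the share was 42.9% (73 of 170), against 15.0% for those without one, and for two-alpha cells with no replicate assigned it was 34.0% (151 of 444).

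The J segments of the pair were tied to each other along the locus. The alpha J segments lie on the plus strand of chromosome 14 in GRCm38, from Traj61 at chr14:54155005-54155076 to Traj2 at chr14:54217836-54217901, upstream of Trac at chr14:54220521-54224206. Over the 182 recurring pairs the positions of the J segments correlated with r = 0.735, with a median distance of 6.60 kb and 70.9% of pairs within 10 kb. Over the 639 pairs seen in single cells r was 0.522, the median distance 8.04 kb and the share within 10 kb 58.1%. These are descriptions over pairs that share libraries and the J usage of each mouse, not tests. Where no replicate was assigned, r was 0.244 over 421 pairs with a median distance of 12.1 kb, and 217 of those pairs that also had a second beta chain gave r = 0.0716 and 13.2 kb.

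The same order was found among eligible cells. Pairs of cells with a second beta chain gave r = 0.212 over 151 pairs, at a median distance of 12.1 kb, against r = 0.649 over 670 pairs without one. By unit r was 0.742, 0.540 and 0.401 in tdTomato+GFP+ replicates 1, 2 and 3 (30, 118 and 85 pairs) and 0.517, 0.672 and 0.645 in tdTomato-GFP- replicates 1, 2 and 3 (299, 180 and 109 pairs). It was positive in every unit. In the printed clones, TRAJ40 of clone A (chr14:54177921-54177981) and TRAJ39 (chr14:54179962-54180024) were 2.04 kb apart, TRAJ16 (chr14:54203134-54203194) and TRAJ6 (chr14:54212688-54212749) of clone B were 9.55 kb apart, and clone C used TRAJ42 (chr14:54175773-54175836) for both.

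**Figure D3:**
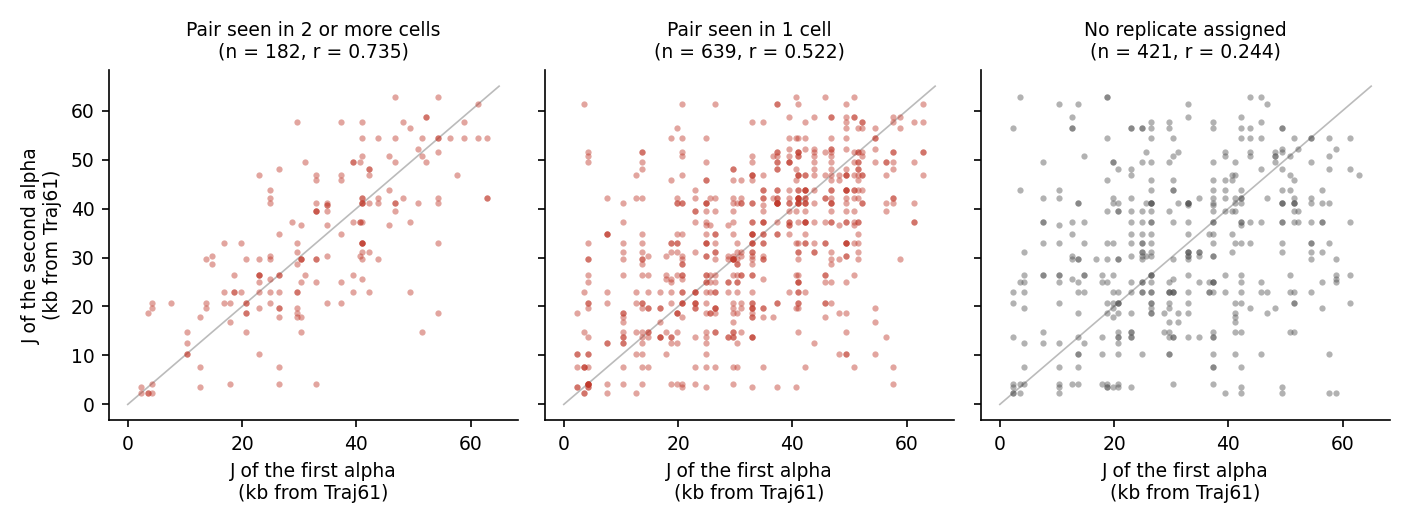
Distance in kb from Traj61 of the J segment of the second alpha (vertical axis) against that of the first alpha (horizontal axis), in 3 panels: pairs recurring in a clone (182), pairs seen in 1 cell (639) and pairs of cells with no replicate assigned (421). The points crowd along the diagonal in the first panel (r = 0.735), less in the second (r = 0.522) and least in the third (r = 0.244).

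Second chains were otherwise like first chains. The first and the second alpha of two-alpha receptors lay on average 33.2 kb and 33.03 kb from Traj61, against 32.6 kb for one-alpha receptors. Their junctions averaged 40.7 and 41.1 bases, against 40.9 in one-alpha receptors, and bases found in neither germline segment averaged 2.83 and 2.85, against 2.81. Every junction was in frame (100%), so a second alpha that was out of frame is not among the deposited chains. TRAJ23 was used by 6.47% of two-alpha and 4.89% of one-alpha receptors, higher in 6 of 6 units, and TRAV9-1 by 0.649% and 2.01%, higher in 0 of 6 units. These segments were picked from all J and V segments after their values were seen, and segment use was not tested. Other segments also went 1 way in all 6 units, among them TRAJ17 and TRAJ28 (higher) and TRAV9-2 (lower). The invariant alpha of iNKT cells was found in 0 two-alpha and 10 one-alpha cells, and the MAIT alpha in 1 two-alpha and 0 one-alpha cells.

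The gene expression library, made from the same cells, also held the V gene of the second alpha. A UMI of that V gene was present in 87.3 ± 8.81% of the two-alpha cells whose second V gene is in the count table (SD over 6 units; 1047 of 1646 cells). In one-alpha cells that used another V gene the background for the same genes was 0.776%. The V gene of the first alpha was present in 88.7% of two-alpha cells and that of the single alpha in 89.5% of one-alpha cells, so the second chain was as visible as the first. For second chains in recurring pairs the share was 84.5%, and 92.2% for those not recurring, which include cells whose beta junction was in no other cell of the unit. In the receptor library the second alpha had fewer UMIs, at 3.69 ± 0.23 per cell, beside 6.17 ± 0.38 on the first alpha of two-alpha cells and 5.22 ± 0.34 on that of one-alpha cells (SD, n = 6 units). First beta chains had 9.86 ± 0.91 UMIs in two-alpha and 9.39 ± 0.37 in one-alpha cells.

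Whether expanded clones held two-alpha cells more often than single cells did depended on what was counted. The share of two-alpha cells averaged 12.4% among clones of 1 cell, 12.03% in those of 2 to 4, 12.05% in those of 5 to 19 and 13.99% in those of 20 or more. In the largest class the units were far apart, at 17.4%, 10.2% and 7.44% in tdTomato+GFP+ and 4.82%, 44.1% and 0% in tdTomato-GFP- replicates. Clones of at least 2 cells exceeded single cells by 0.86 points, higher in 3 of 6 units (exact permutation p = 0.84, two-sided). The share of clones with at least 1 two-alpha cell was 7.81 points higher in clones of at least 2 cells (6 of 6 units, exact permutation p = 0.031), but a clone with more cells has more chances to show a second chain.

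Two-alpha cells were found in all 16 deposited clusters at pooled shares from 8.70% to 16.9%. No cluster passed the adjusted exact permutation test over units against the rest of the cells. The smallest p of this test with 6 units is 0.031, which for a cluster alone at that value adjusts to 0.5. A single cluster could therefore not pass, whatever its share. Cluster 0 had the smallest unadjusted p, at 2.81 points below the other cells in 6 of 6 units (difference -2.81, exact permutation p = 0.031, adjusted p = 0.5) with 10.8% pooled. Cluster 12, whose cells had 50382 CPM of the cytokine gene Il17a, had the highest pooled share of 16.9%. In the 3 tdTomato+GFP+ units its shares were 16.7%, 16.5% and 22%. Cluster 13 had the lowest (8.70%), followed by cluster 15 at 8.77% and cluster 9 at 8.88%. Cells of cluster 9 had 2002 CPM of Ccr7, a homing receptor of naive and central memory cells. Its share was not low in every unit, with 15.4% and 18.2% in tdTomato+GFP+ replicates 2 and 3. Over 5 units its difference from the other cells was -0.66 points (exact permutation p = 0.875). Of the 96 eligible cells with no cluster, 20 (20.8%) were two-alpha.

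**Figure D4:**
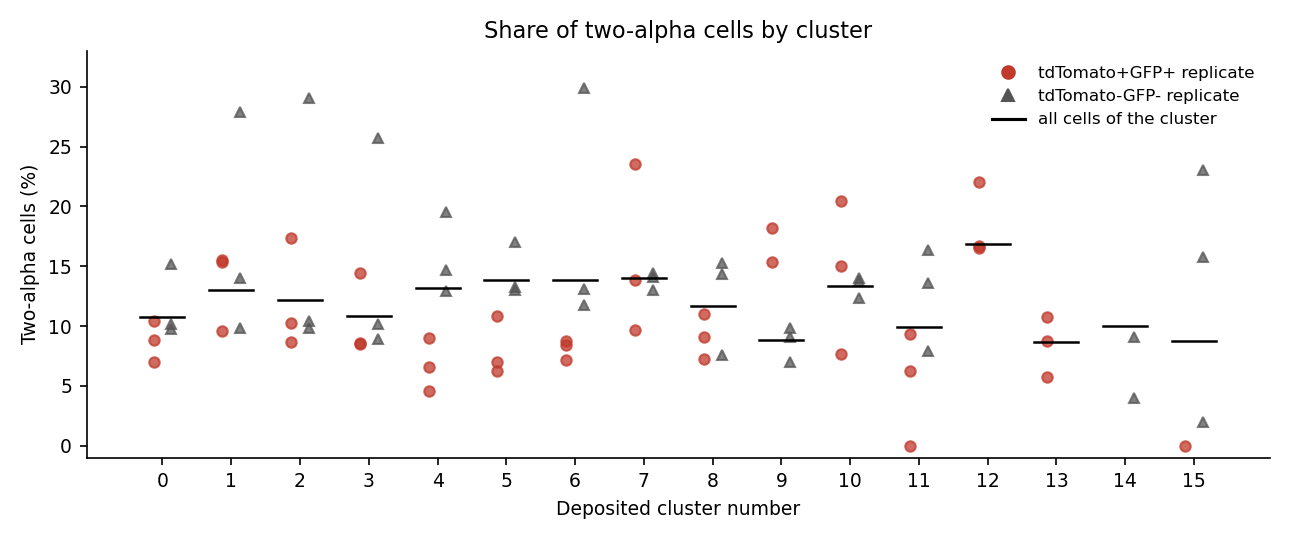
Share of two-alpha cells, in percent, in each of the 16 deposited clusters, from the cells of all units together. Shares run from 8.70% in cluster 13 to 16.9% in cluster 12. No cluster passed after adjustment, which a single cluster could not do with 6 units.

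RNA of the 2 classes differed in few genes. Counts were summed per class and unit and compared within units with edgeR's quasi-likelihood test over 10115 genes, with Benjamini-Hochberg adjusted p under 0.05 as the threshold. Of these genes 5 passed, or 0.0494%, with 4 higher in two-alpha cells (0.0395%) and 1 lower (0.00989%). At an unadjusted p under 0.05 there were 411 genes (4.06%), 2.22% higher and 1.84% lower. A positive fold change was found in 5098 of the 10115 genes. Genes higher in all 6 units made up 1.72% of those tested and genes lower in all 6 units 1.79%, so the 2 directions were balanced.

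Trac, the constant region of the alpha chain, was the gene with the smallest adjusted p. It is tied to the rule, which was set by the alpha chains read, and the cause of its rise was not tested. It had 442, 300 and 310 CPM in two-alpha cells of tdTomato+GFP+ replicates 1, 2 and 3, against 325, 271 and 259 CPM in one-alpha cells. In tdTomato-GFP- replicates 1, 2 and 3 it had 390, 354 and 347 CPM in two-alpha cells, against 309, 277 and 284 CPM in one-alpha cells. The two-alpha value was the higher in 6 of 6 units, and the log2 fold change was 0.31 (SE 0.043, edgeR adjusted p = 0.000707). Trav4-2, an alpha V gene, was the other receptor gene to pass. The beta constant regions Trbc1 (log2 0.02) and Trbc2 (log2 -0.02) had an adjusted p of 1.

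V genes of the alpha locus together had 964 CPM in two-alpha and 742 CPM in one-alpha cells, with 5 of 6 units higher and a geometric mean of 1.22 for the 6 ratios within units, and 37 of 53 tested had a positive fold change with a median log2 of 0.42. The exception was tdTomato+GFP+ replicate 1, with 367 CPM in two-alpha and 818 CPM in one-alpha cells, the unit of clone A, whose V genes are only partly in the count table. V genes of the beta locus had a geometric mean ratio of 0.930, with 2 of 6 units higher and a median log2 of -0.13.

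Irf4, a transcription factor induced by receptor signalling in T cells, was higher in two-alpha cells of every unit. It had 368, 270 and 258 CPM in two-alpha cells of tdTomato+GFP+ replicates 1, 2 and 3, against 258, 252 and 215 CPM in one-alpha cells. In tdTomato-GFP- replicates 1, 2 and 3 it had 196, 204 and 218 CPM in two-alpha cells, against 179, 164 and 159 CPM in one-alpha cells. The log2 fold change was 0.29 (SE 0.053, edgeR adjusted p = 0.0299). The call did not hold in 15 of 26 other settings, in which the direction was kept. Matched on cluster and UMIs the log2 fold change was 0.22 (edgeR adjusted p = 0.19). In clones with a recurring pair it was 0.12 (edgeR adjusted p = 0.862). With same-numbered replicates of the gates summed to 3 pairs it was 0.24 (edgeR adjusted p = 0.117). Without tdTomato+GFP+ replicate 1 or 3 the adjusted p was 0.111 or 0.0641, and without tdTomato-GFP- replicate 2 or 3 it was 0.111 or 0.281.

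Jun, an AP-1 subunit induced early by stimulation and by tissue digestion, was 0.17 higher on the log2 scale (SE 0.031, edgeR adjusted p = 0.0299, 6 of 6 units), at a mean of 1240 CPM in two-alpha and 1100 CPM in one-alpha cells. Its call did not hold in 15 of 26 other settings either, and with 1 cell per clone and class its log2 fold change was 0.01. With same-numbered replicates of the gates summed to 3 pairs it was 0.15 (edgeR adjusted p = 0.1245). Without tdTomato+GFP+ replicate 2 or 3 the adjusted p was 0.209 or 0.177, and without tdTomato-GFP- replicate 2 or 3 it was 0.0625 or 0.317. Fosb, another AP-1 subunit, had log2 0.16 in 6 of 6 units but did not pass (edgeR adjusted p = 0.656).

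Ly6c1, a surface antigen of T cell subsets, was the single gene that fell. It averaged 3.49 CPM in two-alpha and 9.401 CPM in one-alpha cells, a log2 fold change of -1.46 (SE 0.276, edgeR adjusted p = 0.0299), with 5 of 6 units lower. The tdTomato-GFP- units carried this difference, with 13, 8 and 8 UMIs in two-alpha and 203, 115 and 128 UMIs in one-alpha cells of replicates 1, 2 and 3. No tdTomato+GFP+ sum of either class had more than 3 UMIs, so a difference there was not detectable at this depth. In 12 of the 16 other settings that tested it Ly6c1 passed again. It did not in DESeq2 (log2 -1.30), nor where one-alpha cells were drawn to the clusters of two-alpha cells (log2 -0.96, edgeR adjusted p = 0.723). In the remaining settings it was too low to be tested. They included matching on cluster and UMIs, leaving out cells with a second beta chain, clones with a recurring pair and leaving out any tdTomato-GFP- unit.

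**Figure D5:**
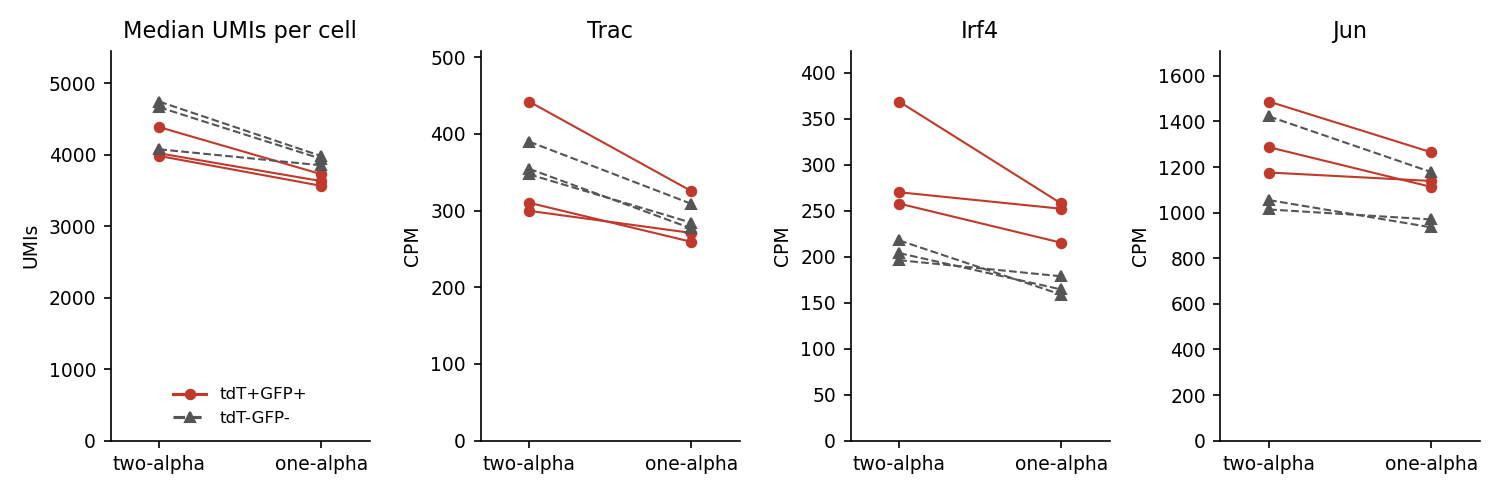
Median total UMIs per cell and CPM of Trac, Irf4 and Jun in the two-alpha sum (left) and the one-alpha sum (right) of each unit; a line joins the classes of 1 unit, by gate. Each of the 4 values is higher in two-alpha cells in all 6 units, and for Trac the two-alpha values run from 300 to 442 CPM.

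Further genes of small unadjusted p did not pass edgeR's adjusted threshold. Ctla4, an inhibitory receptor abundant in regulatory T cells, had log2 0.15, and Odc1, the first enzyme of polyamine synthesis, log2 0.13. On the lower side Pxdc1 had log2 -0.39 (edgeR adjusted p = 0.248), Epas1, a hypoxia-inducible factor, -0.55 (0.284), Dgka, a kinase that removes the second messenger diacylglycerol, -0.25 (0.322), and Nmur1, the neuromedin U receptor, -0.43 (0.472). None of these is counted as changed.

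Genes that define CD4 T cells and their subsets had an adjusted p of 1 by edgeR. These were the receptor subunits Cd3d, Cd3e, Cd3g and Cd247, the co-receptor Cd4, and Cd5 and Cd69. They also included Nr4a1, an immediate target of receptor signalling, at log2 0.11, Foxp3, the regulatory T cell factor, at -0.07, Ikzf2 at 0.24, Il17a at 0.16, Ifng at 0.20, Il4 at -0.18, Gata3 at -0.08 and the proliferation gene Mki67 at 0.10. A p of this size does not show that the classes are alike. Rag1 and Rag2, the recombinase genes, had no UMI in any sum, Dntt, which adds bases at junctions, had none in two-alpha cells, and Zbtb16 was too low to be tested.

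Lists of genes were described by their counts and medians, beside those of all tested genes. Of all 10115 tested genes 5098 had a positive fold change, and the median log2 was 0.00. Among them 2.22% had an unadjusted p under 0.05 by edgeR and were higher, and 1.84% were lower. In the receptor complex and proximal signalling list 15 of 30 genes had a positive fold change, none passed by edgeR, 2 had an unadjusted p under 0.05, both lower, and the median log2 was 0.01. In the list of the response to receptor activation 17 of 22 genes had a positive fold change, 1 passed (Irf4), 5 had an unadjusted p under 0.05, and the median log2 was 0.08, or 0.02 with 1 cell per clone and class. In the AP-1 and dissociation stress list 17 of 19 were positive, 1 passed (Jun), 7 had an unadjusted p under 0.05 and the median log2 was 0.06, or 0.01 with 1 cell per clone and class. Both lists also had 0 genes with an unadjusted p under 0.05 in the lower direction.

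Subset lists were described in the same way. The Treg list had 14 of 18 genes with a positive fold change and a median log2 of 0.06, the Th17 list 13 of 16 and 0.06, the Th1 list 6 of 14 and -0.02, and the Th2 list 4 of 12 and -0.13. For the Tfh list the values were 8 of 11 and 0.11, for the naive and central memory list 3 of 12 and -0.07, and for the cell cycle list 15 of 25 and 0.02. These medians moved with the cells compared. The cell cycle median was 0.71 in clones with a recurring pair and 0.28 with at least 3 UMIs on the second alpha. The Th2 median was -0.50 with at least 3 UMIs on the second alpha. No gene of these lists passed edgeR's adjusted threshold, and the largest number with an unadjusted p under 0.05 was 3, all higher, in the Treg list.

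Markers of other cell types were summed in both classes. In the B and plasma cell list 11 of 12 tested genes had a positive fold change, with a median log2 of 0.36, and 0 passed edgeR's adjusted threshold, with 1 gene at an unadjusted p under 0.05. Its summed level was 1788 CPM in two-alpha cells, with a range of 688.9 to 2918.6, and 938.7 CPM in one-alpha cells, with a range of 579.7 to 1322.8, higher in 5 of 6 units. Two-alpha cells averaged 729 CPM of Jchain and 344 CPM of Igkc, genes of antibody-secreting cells, against 247 and 66.6 CPM in one-alpha cells. Without the cells that had a second beta chain the list was at 1610 CPM in two-alpha and 949 CPM in one-alpha cells, and matched on cluster and UMIs its median log2 was -0.03.

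In the myeloid and dendritic cell list 9 of 10 tested genes were positive, none passed by edgeR with 4 at an unadjusted p under 0.05, and the summed level was 642 CPM in two-alpha and 599 CPM in one-alpha cells (5 of 6 units higher), while S100a8, S100a9 and Flt3 had no UMI in two-alpha cells. The NK cell and ILC list was at 391 CPM in two-alpha and 408 CPM in one-alpha cells, and the mast cell list at 0 in both. The epithelial list was at 20.3 CPM in two-alpha and 45.4 CPM in one-alpha cells, but higher in two-alpha cells in 4 of 6 units. Its one-alpha mean rested on tdTomato-GFP- replicate 1, with 178.5 CPM. No UMI stood under the gene names Cd8a, Trdc, Trgc1 and Trgc2 in two-alpha cells, but related genes were read. The gamma constant regions Tcrg-C1 and Tcrg-C2 had 133.7 and 9.451 CPM in two-alpha cells, against 128.9 and 11.75 CPM in one-alpha cells. Tcrg-C1 was higher in two-alpha cells in 2 of 6 units and Tcrg-C2 in 1 of 6. Cd8b1 had 4.472 CPM in two-alpha and 6.399 CPM in one-alpha cells, higher in 1 of 6 units. The part of other cells in the expression differences was not tested.

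Counted with 1 cell per clone and class, 16 of 8508 genes passed by edgeR (0.188%), and in tdTomato-GFP- cells alone 12 of 10168 did (0.118%), against 0 of 9909 in tdTomato+GFP+ cells alone (0%), where 391 had an unadjusted p under 0.05. These genes were named after their values were seen. MHC class II genes, which antigen-presenting cells express, were among them in both settings, but did not pass over all cells. There Cd74, the invariant chain, had log2 0.29 (edgeR adjusted p = 1), and matched on cluster and UMIs its log2 fold change was -0.01 and that of H2-Ab1 -0.05. Cd74 was higher by log2 0.54 with 1 cell per clone (SE 0.0682, edgeR adjusted p = 2.37e-05) and by log2 0.56 in tdTomato-GFP- cells (SE 0.0581, adjusted p = 2.76e-07). Over all cells of tdTomato-GFP- replicates 1, 2 and 3 it had 298, 386 and 414 CPM in two-alpha cells, against 206, 273 and 260 CPM in one-alpha cells. H2-Eb1 was higher by log2 0.70 and 0.65 in the same settings, and H2-Ab1 by 0.57 with 1 cell per clone. In tdTomato+GFP+ replicate 1 Cd74 went the other way, with 149 CPM in two-alpha and 228 CPM in one-alpha cells.

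Apoe, a lipoprotein gene of macrophages, was higher by log2 0.45 in tdTomato-GFP- cells (edgeR adjusted p = 0.01297), and Rrad, a small GTPase gene, was lower (log2 -0.47). With 1 cell per clone Cxcr6, a chemokine receptor of tissue T cells, was higher by log2 0.25, and Myc, a growth factor-induced transcription factor, was lower (log2 -0.48), as was Dgka (log2 -0.35). With one-alpha cells matched to two-alpha cells on cluster and UMIs 7 of 8226 genes passed (0.0851%). Jun was among them at log2 0.30 and Trac at 0.33, while Epas1 (log2 -0.94) and the granule protease gene Gzmb (log2 -0.39) were lower. Trac was the only gene that passed over all cells and again in each of these 3 settings. In clones with a recurring pair it had log2 0.31 and did not pass (edgeR adjusted p = 0.513).

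The comparison of classes was also made in clones with a recurring pair, where the cells of a clone share their beta chain. These cells were pooled per unit and class and not paired by clone. Differences between clones were therefore not separated from differences within them. In the clones with a recurring pair, 1010 two-alpha and 821 one-alpha cells were available. The median UMIs of two-alpha cells were 1.152 times those of one-alpha cells and the genes detected 1.09 times as many, both in 6 of 6 units (exact permutation p = 0.031). A second beta chain was 1.04 points more frequent in two-alpha cells there (exact permutation p = 0.125). By edgeR 10 of 6765 genes passed (0.148%), and none of them was among the 5 genes that passed over all cells. These genes, named after their values were seen, included the cell division genes Cks1b (log2 1.37) and Cenpa (log2 1.01), the tubulin gene Tubb5 (log2 0.43), the nucleotide enzyme gene Dut (log2 0.69), the co-stimulatory receptor Cd27 (log2 1.03) and Nr4a3, a target of receptor signalling (log2 0.44). Tbx21, the Th1 factor, was lower (log2 -0.89). In clone A alone the median UMIs were 4526 in two-alpha and 3834 in one-alpha cells. Clone C had 4327.5 and 3729, and clone H in tdTomato+GFP+ replicate 2 had 3887 and 2581, the latter from 3 one-alpha cells. Among the printed clones only clone B was lower in two-alpha cells, with 3729 against 3911 in one-alpha cells.

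The difference between two-alpha and one-alpha cells was tested for a difference between the gates over the same 10115 genes. By edgeR 1 gene passed (0.00989%), and 404 had an unadjusted p under 0.05. This gene was Cd7, an immunoglobulin family surface protein of T and NK cells, with a log2 difference of -4.84 (SE 0.681, edgeR adjusted p = 0.00139), lower in tdTomato+GFP+. In tdTomato+GFP+ replicates 1, 2 and 3 it had 0, 1 and 0 UMIs in two-alpha cells, against 7, 50 and 188 UMIs in one-alpha cells. In the tdTomato-GFP- units it had 51.2, 53.3 and 74.2 CPM in two-alpha cells, against 49.3, 60.1 and 72.2 CPM in one-alpha cells, with no such gap.

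The Cd7 value depended on tdTomato+GFP+ replicates 2 and 3. In replicate 3, 16 of the 37 one-alpha cells with a Cd7 UMI belonged to 1 clone of 23 cells, and without this unit the log2 difference was -2.775 and did not pass (edgeR adjusted p = 1). Without replicate 2, which held the single two-alpha UMI of that gate, the difference was -8.99 (edgeR adjusted p = 0.000942). Il1rl1, the IL-33 receptor, at -1.41 and Gata3, the transcription factor of type 2 cells, at -0.53 were next on the lower side and did not pass. Bag3, a heat shock co-chaperone, at 0.78, Exosc7, an RNA exosome subunit, at 0.68 and Gm47882 at 0.66 were next on the higher side and did not pass.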

How the data were processed

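The deposited files were a table of UMI counts per cell and gene, a cell table and a receptor table covering both lanes, 1 per gate. The counts were whole numbers as deposited, made with Cell Ranger and Scanpy 1.7.2 on mm10 (GRCm38) per the submitters' processing notes; the Cell Ranger version, the clustering and the rule that assigned replicates are not given in the sources used here. The deposited fraction of a cell's hashtag UMIs on its main hashtag came from the authors' cell table, as did clusters and replicates. Receptor chains were deposited ranked by their UMIs, with productive junctions only.

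The 3 hashtag features, 43.8% of all UMIs, were left out. Counts were summed per class and unit (810316 to 2358768 UMIs in two-alpha sums, 4850778 to 14622476 in one-alpha sums) and tested in R 4.3.3 with edgeR 4.0.16 (TMM, minimum count 10, robust quasi-likelihood, unit as a block, Benjamini-Hochberg over all tested genes), with DESeq2 1.42.0 as an alternative. The edgeR step was tested on simulated data with known fold changes. CPM was computed from these sums. Cell measures were compared by exact sign-flip permutation over the 6 units. Shares were compared between gates by exact permutation of 3 against 3 units. P-values measure the spread between these hashed replicates, which the labels call biological.

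With the mean of each gate subtracted per gene, same-numbered replicates of the gates deviated together (r = 0.285, 0.247 and 0.324 over 6418 genes). Between unlike numbers r was -0.255 to -0.048. The subtraction makes these values negative on average where same-number values are positive, so they are not separate evidence. Same-numbered replicates also shared receptors, so the numbers were taken to pair the gates. Paired, the gate difference in the share of two-alpha cells had p = 0.75 (exact permutation; 0.25 is the smallest for 3 pairs).

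Doublets were not called; their signs are given in the report. J positions and germline bases came from GENCODE vM21 on GRCm38. The named genes were those passing at 10 CPM or more with the same direction in all 6 units, the next by unadjusted p up to 5 per direction, a fixed list of receptor and subset genes (not all are reported here), and the first 3 per direction for the gate difference. The members, lists and tests were chosen with earlier results of these data known. Intervals cover counting error only. Alternatives included other normalizations and filters, leaving out each unit, cells with a second beta chain, impure hashtags or high UMIs, and matching. Those in clones with a recurring pair, without clone mates, without the largest clone and by replicate number were added after seeing the data.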

Additional observations from a re-analysis of the deposited data

Results flagged for a closer look

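Among 45 values tested for a unit far from the others, 4 were; chance gives about 1 in 20 such values. In tdTomato-GFP- replicate 2 the share of two-alpha cells was 12.16 percentage points higher in clones of at least 2 cells than in single cells, while the other 5 units lay between -4.91 and 1.24. The log2 ratio of two-alpha over one-alpha CPM (plus 0.5) stood apart in tdTomato+GFP+ replicate 3 for Ly6c1 (1.403), Cd7 (-5.951) and Nr4a1 (0.3538). For Ly6c1 that unit's sums held at most 3 UMIs.

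The fold change of Cd7 differed between the gates by -4.839 on the log2 scale by edgeR's interaction test (adjusted p = 0.00139), a value that depends on single units: it was -2.775 without tdTomato+GFP+ replicate 3 (adjusted p = 1) and -8.99 without tdTomato+GFP+ replicate 2 (adjusted p = 0.000942). Exosc7 and Gm47882 had fold changes of opposite sign in all units of the gates, with interaction terms of 0.6767 and 0.6625 (edgeR adjusted p = 1 for both).

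Cells with no replicate assigned were outside the comparisons. A second alpha was present in 23.38% of the tdTomato+GFP+ and 31.91% of the tdTomato-GFP- ones, and a second beta in 20.48% and 39.4%. These values exceeded the share of every unit.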

How the results depend on the processing

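Over 140 alternative values of the main comparisons none turned direction among called values, 94 kept their side of the threshold or their size, 21 lost significance, 1 gained it and 24 counts of genes moved. Of the 928 alternatives for named genes 873 kept their side of the threshold, 39 lost a call and 16 gained one. The count of genes that passed, 5, became 2 in DESeq2, 39 with no filter on low counts, 3 with a minimum count of 30 and 0 with no replicate block (330 at an unadjusted p under 0.05), since the paired units then no longer share a term. It was 0 with only the tdTomato+GFP+ and 12 with only the tdTomato-GFP- units, 3 with cells under a hashtag fraction of 0.95 left out, 8 with at least 3 UMIs on the second alpha, 2 with one-alpha cells drawn to the clusters of two-alpha cells, 16 with 1 cell per clone and class, 3 without T cell receptor genes, 10 in clones whose pair recurs, and 13 with the gates of a replicate number summed to 3 pairs, 3 of them among the 5. With signs flipped by replicate number the log2 ratios of UMIs (0.1864) and genes per cell (0.1268) and the excess of two-alpha clones (7.813 points) had an exact permutation p of 0.25, the smallest for 3 pairs. Leaving out 1 unit gave 2 to 8 genes: 8 without tdTomato+GFP+ replicate 1, 3 without tdTomato-GFP- replicate 2 and 2 without tdTomato-GFP- replicate 3. For the difference between gates the count of 1 became 15 with no filter, 3 when matched on cluster and UMIs and 2 to 9 without 1 unit, 9 of them without tdTomato+GFP+ replicate 2. Without 1 unit the log2 ratio of median UMIs ranged from 0.1732 to 0.2074, that of genes per cell from 0.116 to 0.1376, and the excess of two-alpha clones among larger clones from 6.641 to 8.875 points, with an exact permutation p of 0.0625, the smallest that 5 pairs allow. With medians the hashtag fraction differed by 0.003607 (exact permutation p = 0.031). Apart from the block, fewer genes tested or fewer samples, the cause was not tested. Depth limits genes under about 10 CPM, whose two-alpha sums hold few UMIs, and a second alpha that was not read leaves a cell in the one-alpha class.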
